A study of Mus musculus with 2 samples.

Results

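The Zic transcription factors Zic1, Zic2, Zic4 and Zic5 are examined here as 4 genes whose transcripts carry m6A in newborn mouse brain. A site belonged to a gene when its position fell inside the GENCODE M21 (GRCm38) interval of that gene on the same strand. By this rule the 4 genes held 78 GLORI-detected sites, of 219409 in all, with 35 of the 79355 sites of the cerebellum library and 67 of the 188295 sites of the cerebrum library. The sites were thus chosen by their listed positions, so the counts per gene are a description. Coding genes with a site numbered 12859. All 4 Zic genes had sites in both libraries, which 68.2% of these genes did, and 70.3% had one in the cerebellum.

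GLORI converts unmethylated adenosine by glyoxal and nitrite treatment into a base read as G, so that an adenosine still read as A is taken as m6A. The 2 libraries, 1 per tissue, came from poly(A)+ RNA of the cerebellum and the cerebrum, which the methods give as tissues of a female F1r mouse at P0 (postnatal day 0). Both were treated (GLORI+), and no untreated library was analysed here. F1r is the cross of a C57BL/6J (C57) mother with a PWK/PhJ (PWK) father, so every cell carries 1 allele of each strain. The deposited lists give the position and strand of each site that passed the authors' limits, more than 8 reads and a rate over 0.1. They give neither the rate nor the reads, so the depth is unknown, an adenosine that is not listed may be unmethylated, unexpressed or too thinly covered, and no difference between the tissues could be tested. In bulk tissue, fewer cells of a type and less RNA per cell cannot be told apart.

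Zic proteins are zinc finger transcription factors related to the GLI proteins of Hedgehog signalling. They act in the early patterning of the neural tube and midline, and in the developing cerebellum Zic1 and Zic2 mark granule cell precursors and young granule neurons. The genes lie in head-to-head pairs, Zic1 with Zic4 and Zic2 with Zic5, and loss of the Zic1 and Zic4 pair is linked to Dandy-Walker malformation of the cerebellum in humans. m6A is deposited on nascent mRNA by the METTL3-METTL14 complex, mainly at DRACH 5-mers, in which any base but C stands first (D), a purine second (R), then A, which is methylated, and C, and any base but G last (H). It gathers in long internal exons and near stop codons and is sparse close to exon junctions.

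In GRCm38, Zic1 spans chr9:91358058-91365810 on the minus strand and Zic4 chr9:91362413-91389348 on the plus strand, so that their intervals overlap by 3398 bp. Zic5 spans chr14:122456795-122465677 on the minus strand and Zic2 chr14:122475435-122479852 on the plus strand, with 9757 bp between them. The longest complete coding isoforms have 3 exons in Zic1, Zic2 and Zic4 and 2 in Zic5. In each gene the first exon is long, from 761 nt in Zic4 to 1786 nt in Zic5, and holds most of the coding sequence. The intervals of Zic1 and Zic4 share sequence, but their sites were separated by strand. All 14 sites listed on the strand opposite to Zic4 were those of the first exon of Zic1, and no site lay opposite to Zic1, Zic2 or Zic5.

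The genes split by the balance of the libraries. Zic1 had 19 cerebellum and 22 cerebrum sites, with 14 at the same position in both. Zic2 had 9 and 10, with 5 in both. Zic4 had 4 and 24, with 3 in both, and Zic5 had 3 and 11, with 2 in both. Zic1 and Zic2 were therefore listed almost equally in both tissues, while Zic4 and Zic5 were listed mostly in the cerebrum. Cerebellum sites made up 46.3% of the sum of both counts in Zic1 and 47.4% in Zic2, against 14.3% in Zic4 and 21.4% in Zic5. The median over the 5465 coding genes with 10 or more sites was 29.6%, the cerebrum list being the longer one. Zic1 lay above 95.2% and Zic2 above 96.1% of those genes, Zic4 above 11.3% and Zic5 above 25.3%. None of the 4 genes had as many sites in the cerebellum as in the cerebrum, which 2.78% of the coding genes did. Within the pair on chromosome 9, the cerebellum list held 19 sites for Zic1 against 4 for Zic4. Expression of these genes, coverage and methylation all bear on such counts and cannot be told apart here.

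**Figure D1:**
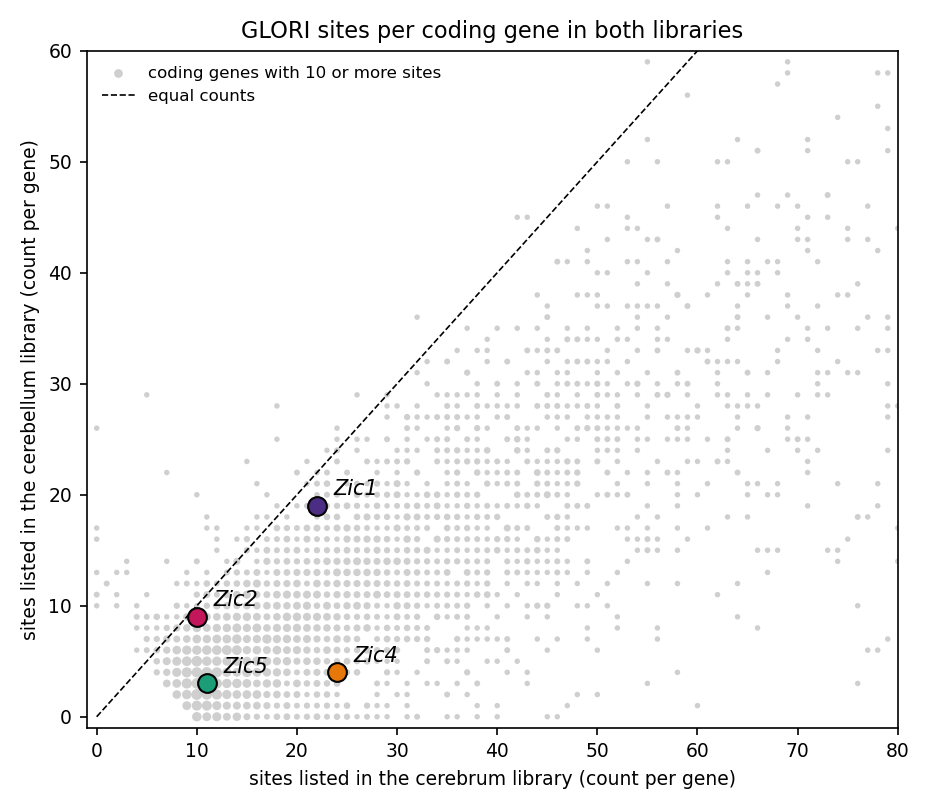
Sites listed per coding gene in the cerebrum library (x axis, count) and the cerebellum library (y axis, count), for genes with 10 or more sites, with larger grey points where several genes coincide and 281 genes beyond the axes. Zic1 (22 and 19) and Zic2 (10 and 9) sit just under the dashed line of equal counts, Zic4 (24 and 4) and Zic5 (11 and 3) far below it.

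DRACH 5-mers made up 26 of the 35 cerebellum sites (74.3%, 95% Wilson interval 57.9% to 85.8%), where the whole list had 62.1%. In the cerebrum they were 47 of 67 (70.1%, 58.3% to 79.8%), where the whole list had 46.7%. Of the 78 sites 50 were DRACH, against 44.4% of all sites of either library. The intervals cover counting error over sites only. Both libraries shared 24 of the 78 positions, against 22.0% of all sites, which made up 68.6% of the cerebellum sites (whole list 60.8%) and 35.8% of the cerebrum sites (whole list 25.6%). Among these 24, 23 were DRACH, against 82.7% of all shared sites, the exception being a GAACG in Zic1. The 50 DRACH sites were thus shared in 23 cases, against 41.0% of all DRACH sites. Of the 26 DRACH sites of the cerebellum list, 23 were also in the cerebrum list (88.5%), against 81.0% over all genes. Of the 47 DRACH sites of the cerebrum list, 23 were in the cerebellum list (48.9%), against 45.3%. Outside DRACH, 1 of 28 sites was shared, against 6.83% of all such sites, which is 1 of the 9 in the cerebellum list (27.7% over all genes) and 1 of the 20 in the cerebrum list (8.31%). The intervals of the DRACH shares, 71.0% to 96.0% and 35.3% to 62.8%, hold the values of the whole lists.

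Among the 78 sites, AAACT was the most frequent 5-mer with 10, followed by GAACT and GGACT with 7 each. In the cerebellum AAACT made up 7 of the 35 Zic sites against 5.62% of all sites. On the longest isoforms, 8 of the 32 AAACT adenosines of the 4 genes were detected in either library, against 10.5% in coding genes with a site. Most of these detected AAACT sites are copies at aligned positions of the paralogs, compared further on, so they are not independent. For GGACT the numbers were 7 of 14 (50.0%) against 20.7%, and for GAACT 7 of 15 (46.7%) against 18.0%. AAACA, the most common DRACH 5-mer of these isoforms with 38 adenosines, was detected once (2.63%, against 2.69%).

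**Figure D2:**
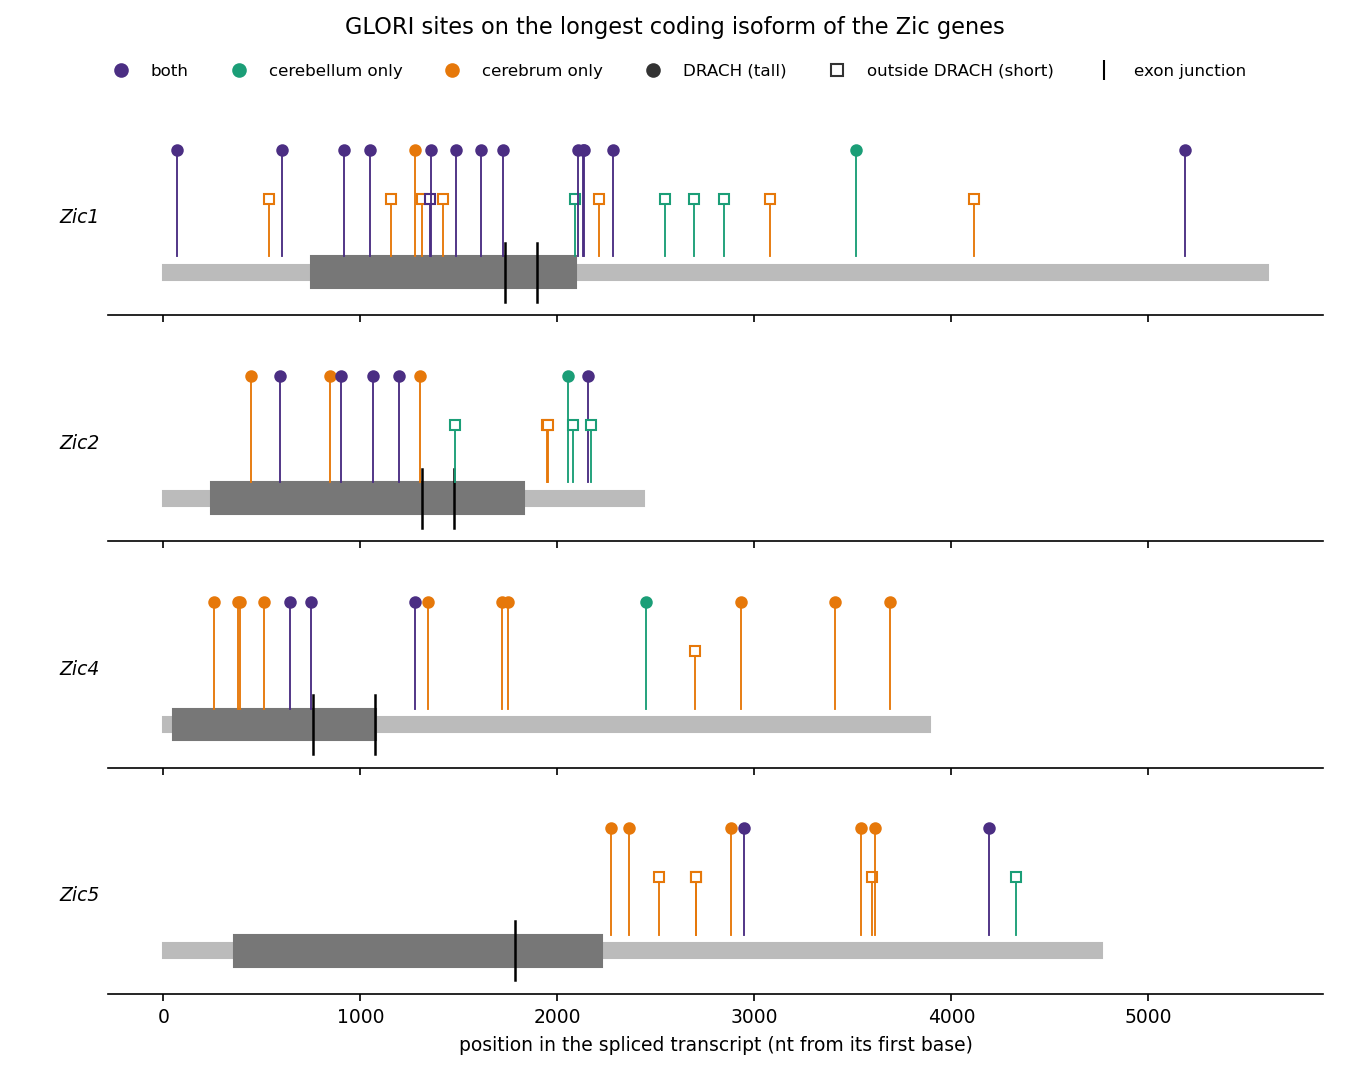
Sites on the longest coding isoform of each Zic gene, by position in the spliced transcript (nt), with wide bars for coding sequence, narrow bars for UTRs, black ticks for exon junctions, tall pins with circles for DRACH sites and short pins with squares for other sites, coloured by the library that lists them. Zic1, Zic2 and Zic4 carry a row of DRACH sites in the coding part of exon 1, while the 12 sites of Zic5 all lie in the 3′ UTR.

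Zic1, which marks the granule lineage of the cerebellum and dorsal neural progenitors, was the member with the most sites. Its 27 sites all lay on the longest isoform of 5606 nt, with 3 in the 5′ UTR, 12 in the CDS and 12 in the 3′ UTR. Exon 1 (1733 nt) held 14 of them and exon 3 (3709 nt) 13, while the 164-nt exon 2 held none and had 1 DRACH adenosine. Of its 15 DRACH sites, 13 were listed in both libraries, 1 only in the cerebrum (chr9:91364490, GAACA) and 1 only in the cerebellum (chr9:91360150, GAACT). Over all genes, 41.0% of DRACH sites were in both. Outside DRACH, 1 of the 12 sites of Zic1 was shared, near the 6.83% over all genes.

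In the 5′ UTR of Zic1, 2 DRACH sites were listed in both libraries, at chr9:91365700 (AGACA), the first site of the transcript, and chr9:91365166 (AGACT). A site outside DRACH at chr9:91365232 (TCATC) was listed in the cerebrum only. Zic1 was the member with sites in its 5′ UTR, as Zic2, Zic4 and Zic5 had none there, with 1, 1 and 4 DRACH adenosines in theirs. At the other end of the reading frame, Zic1 carried a group of sites close together. Within 200 nt of the stop codon lay 6 sites, of which the 4 DRACH sites were in both libraries, 9, 38, 43 and 188 nt downstream of the stop codon. These are printed because sites near the stop codon are the hallmark of mRNA m6A and Zic1 is the only member that has them in both libraries. Sequences are from GRCm38 on the transcript strand, with T for U and the 5-mer around the m6A in capitals.
Zic1, chr9:91361550-91361570, 9 nt after the stop codon: aaaatcagAAACAaaacatgc
Zic1, chr9:91361521-91361541, 38 nt after the stop codon: tatttaagAGACTgaacacac
Zic1, chr9:91361516-91361536, 43 nt after the stop codon: aagagactGAACAcacacgta
Zic1, chr9:91361371-91361391, 188 nt after the stop codon: taaatccaGGACTgagtaaaa

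The sites 38 and 43 nt after the stop codon are neighbours 5 nt apart, the smallest gap between DRACH sites on these isoforms. The other 2 sites of the window were outside DRACH, a GTACG 5 nt before the stop codon (chr9:91361576, cerebellum only) and an AAACG 115 nt after it (chr9:91361454, cerebrum only). Farther into the 3′ UTR the list thinned out. Downstream of 200 nt lay 7 sites, 5 of them outside DRACH, from chr9:91361116 (GGATT, cerebellum only) to chr9:91358479 (GAACT), the last site of the gene. That last site, 3090 nt after the stop codon, was again in both libraries. A shorter coding isoform has a 3′ UTR of 1069 nt against 3511 nt in the longest, and 3 sites lay beyond its end, 2 of them DRACH.

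Zic2, a gene required for forebrain midline development and mutated in human holoprosencephaly, had 14 sites on its 2440-nt isoform, 8 in the CDS and 6 in the 3′ UTR. All 7 sites of exon 1 (1313 nt) were DRACH, and all 7 were in the cerebrum list, with 4 of them also in the cerebellum list. The sites that only the cerebrum held were chr14:122475879 (GAACT), the first site of the gene, chr14:122476279 (GGACC) and chr14:122476738 (GAACT). Exon 2 (164 nt, 3 DRACH adenosines) held none. Exon 3 held the other 7 sites, 5 of them outside DRACH. Of the 7, 1 was shared, an AAACT at chr14:122479570, 327 nt after the stop codon, where 22.0% of all sites were shared.
In the cerebellum only were chr14:122478894 (CCATG), 5 nt from the second junction, and chr14:122479465 (AAACT), chr14:122479491 (GAAAG) and chr14:122479584 (GGACG, the last site) in the 3′ UTR. In the cerebrum only were chr14:122479359 (GAAAA) and chr14:122479364 (AAAAA), 116 and 121 nt after the stop codon and inside a run of adenosines. No DRACH site of Zic2 lay within 200 nt of its stop codon, where the isoform has 4 DRACH adenosines. Zic2 had the highest share of detected DRACH adenosines of the 4 genes, with 6 of 31 in the cerebellum (19.4%, 9.19% to 36.3%) and 8 of 31 in the cerebrum (25.8%, 13.7% to 43.2%). The intervals overlap those of Zic1 and Zic4 in both libraries, while that of Zic5 in the cerebellum, 0.567% to 7.21%, lies below. These shares lay above those of 95.2% and 95.8% of the coding genes with at least 20 DRACH adenosines.

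Zic4, the head-to-head partner of Zic1, had 25 sites, of which 21 were in the cerebrum only. The 4 cerebellum sites were all DRACH: chr9:91379284 (AAACT) and chr9:91379393 (GAACA) in exon 1, chr9:91386736 (GGACA) in the 3′ UTR, 201 nt after the stop codon, and chr9:91387908 (AGACA) farther downstream. The first 3 were shared with the cerebrum, and the last was the 1 site of Zic4 listed in the cerebellum only. Both exon 1 sites of the cerebellum list fell among the last 119 nt of that exon, at positions that are compared between the genes further on. On the longest isoform the cerebrum listed 14 sites, 6 in the CDS, all in exon 1 and all DRACH, and 8 in the 3′ UTR. The first of them was chr9:91378897 (GGACT) and the last chr9:91389145 (GAACT), 2610 nt after the stop codon.
The stop codon of Zic4 is split by the last junction, and no site lay within 200 nt of it, where the isoform has 1 DRACH adenosine. A shorter coding isoform ends after 1258 nt of 3′ UTR, against 2813 nt in the longest, and 5 sites lay past that end, 4 of them DRACH.

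Zic4 was also the member with sites off its coding isoforms. It had 10, each in the cerebrum only. At chr9:91380199, 91380366, 91380368, 91380585, 91380798 and 91380935, 6 sites fell on an exon of an isoform annotated as a retained intron, and 3 more lay downstream in the same intron, at chr9:91381229, 91382195 and 91382731. A further site lay far upstream at chr9:91367044 (CCATT). Of the 10, 5 were DRACH (50.0%, 23.7% to 76.3%), against 15.1% of all cerebrum sites inside coding genes but off complete coding isoforms. Such sites were 32.8% of all cerebrum sites inside coding genes and 10 of 24 in Zic4. The 5 DRACH sites among them are printed because they lie outside the complete coding isoforms of Zic4.
Zic4, chr9:91380189-91380209: ccaccgttTGACTctccttac
Zic4, chr9:91380788-91380808: aagcaaacAAACTtatactgc
Zic4, chr9:91381219-91381239: attcatgaAGACAgttttcga
Zic4, chr9:91382185-91382205: ctaacctcAAACTctatccct
Zic4, chr9:91382721-91382741: cacccccaGGACCttcagttg

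Zic5, the head-to-head partner of Zic2 and a gene of neural crest and dorsal neural tube development, had 12 sites on its 4767-nt isoform, and all lay in the 3′ UTR. Its 1869-nt coding sequence has 26 DRACH adenosines, of which none was listed in either library (0%, 0 to 12.9%), and the 1786-nt exon 1 held no site of any motif. In the 3′ UTR 7 of 67 DRACH adenosines were listed in the cerebrum (10.4%) and 2 in the cerebellum (2.99%, 0.822% to 10.2%), against 8.97% and 6.86% of the 3′ UTR DRACH adenosines of coding genes with a site. Zic5 was thus near the general level in its 3′ UTR in the cerebrum and had nothing listed upstream of it. Reads per position are not in the lists, so coverage of the 5′ part of the transcript, and its part in this result, was not tested. The first site, chr14:122459291 (GGACC), and chr14:122459197 (AAACC) lay 42 and 136 nt after the stop codon and were in the cerebrum only. The last, chr14:122457234 (TTACA), was in the cerebellum only. Both libraries shared 2 sites, which were 717 and 1961 nt after the stop codon.
Zic5, chr14:122458606-122458626: cagatcctGGACTgtacctgt
Zic5, chr14:122457362-122457382: acttgaatGGACAaggtaatg
The other 4 sites outside DRACH were listed in the cerebrum only, at chr14:122459047 (CCAGG), 122458858 (ATACA), 122458856 (ACAAT) and 122457967 (TCATC).

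Since the 4 proteins are paralogs, their coding sequences were aligned by codon. A search for zinc fingers of canonical spacing found 4 in each protein. A finger of other spacing would be missed, so these 4 need not be all the fingers. Over the stretch from the first to the last of these fingers, Zic1 was 99.1% identical to Zic2, 93.9% to Zic4 and 93.0% to Zic5, against 76.9%, 64.5% and 56.9% over all aligned residues. In each of the 4 genes this finger stretch begins 172 nt before the end of exon 1, so the same part of the stretch is encoded there. Whether sequence upstream of it encodes a further finger was not tested. In the coding sequence, 6 aligned positions carried a detected DRACH site in 2 or more of the 4 genes, and all 6 lay in exon 1. Distances below count back from the last base of exon 1, which is 1.

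The last 3 of these positions were detected in Zic1, Zic2 and Zic4 alike, and lay at the same distance, 250, 119 and 10 nt from the end of the exon, in each gene. They are printed for all 4 genes, since they show which sequence the genes share where m6A was found, and which they share where it was not.
At 250 nt, upstream of the finger stretch that the search found, the site was in both libraries for Zic1 and Zic2 and in the cerebrum for Zic4. It was in neither for Zic5, although Zic5 also has a DRACH 5-mer there.
Zic1, chr9:91364275-91364295: gtgcaacaAAACTttcagcac
Zic2, chr14:122476488-122476508: ctgcaacaAAACTttcagcac
Zic4, chr9:91379143-91379163: ctgctccaAAACTttcagcac
Zic5, chr14:122464131-122464151: ctgctccaAAACTttcggcac
At 119 nt, inside the finger stretch, the site was in both libraries for Zic1, Zic2 and Zic4. Zic5 has no DRACH 5-mer at that position.
Zic1, chr9:91364144-91364164: ccaaatacAAACTggtcaacc
Zic2, chr14:122476619-122476639: ccaaatacAAACTggtcaacc
Zic4, chr9:91379274-91379294: ccaaatacAAACTtgtaaatc
Zic5, chr14:122464000-122464020: ccaagtacAAGCTcatcaacc
At 10 nt, the site was in both libraries for Zic1 and Zic4 and in the cerebrum for Zic2. The 5-mer was a different DRACH form in each of these genes. The adenosine of Zic5 is outside DRACH.
Zic1, chr9:91364035-91364055: ccacaaaaGGACAcacacagg
Zic2, chr14:122476728-122476748: ccacaaaaGAACTcatacagg
Zic4, chr9:91379383-91379403: acacaaacGAACAcatacagg
Zic5, chr14:122463891-122463911: ccacaagcGCACTcatacagg

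The other 3 aligned positions were shared by Zic1 and Zic2. They are a GAACT at chr9:91364853 in Zic1 (both libraries) and chr14:122475879 in Zic2 (cerebrum), a GGACT at chr9:91364722 and chr14:122476028, and a GAACA at chr9:91364410 and chr14:122476334, the last pairs in both libraries. Near these positions the proteins vary in length, so that in exon 1 the 3 sites lie 818, 687 and 375 nt from its end in Zic1 and 869, 720 and 414 nt in Zic2. Zic4 has a gap or no DRACH there. Zic5 has no DRACH at the first position. At the others it has a GGACT (chr14:122464800) and an AAACC (chr14:122464401), which neither library listed. Not every shared DRACH was detected. A GAACC 30 nt from the end of exon 1, present in Zic1, Zic2 and Zic5, was listed in none of them.

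Counted over the whole coding sequence, the 4 genes have 40 DRACH adenosines at aligned positions where another of the 4 genes also has DRACH, and 18 of these were detected in at least 1 library. Of the 38 DRACH adenosines at positions where no other member has DRACH, 2 were detected. In Zic1 the counts were 7 of 10 against 0 of 5, in Zic2 6 of 10 against 1 of 10, in Zic4 5 of 10 against 1 of 7, and in Zic5 0 of 10 against 0 of 16. Aligned positions of paralogs share their surrounding sequence, so these counts are not independent. Over coding genes with a site in the library, 5.01% (cerebellum) and 6.73% (cerebrum) of coding DRACH adenosines were listed. These shares are per library, whereas the counts above take a site of either library, so the measures differ. The 2 groups also differ in motif, as 5-mers ending in ACC were more frequent where no other member has DRACH. Over coding genes, GGACC was detected in 9.82% of cases and GGACT in 20.7%. For GAACC and GAACT the shares were 4.49% and 18.0%, and for TGACC and TGACT 1.82% and 13.5%. The part of the motif in these counts was not tested. Extending a match to 3 nt left the number of aligned positions at 6.

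Reads from paralogs can be exchanged where sequences are nearly alike. At 119 nt, the 21-nt windows of Zic1 and Zic2 differ at 0 positions, and 101-nt windows centred there differ at 9, or at 6 with A read as G as in GLORI reads. Zic1 and Zic4 differ there at 13 and 10 positions of 101 nt, and Zic2 and Zic5 at 11 and 6. At 250 nt, where Zic4 was listed and Zic5 was not, their 21-nt windows differ at 1 position, or at 0 with A read as G. Their 101-nt windows differ there at 37 and 32 positions. Around the 6 positions, the longest run without a difference between any 2 genes, with A read as G, was 42 nt, between Zic1 and Zic4 at the position 250 nt from the end of the exon. Whether reads were placed on the wrong paralog was not tested, as the lists hold no reads.

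**Figure D3:**
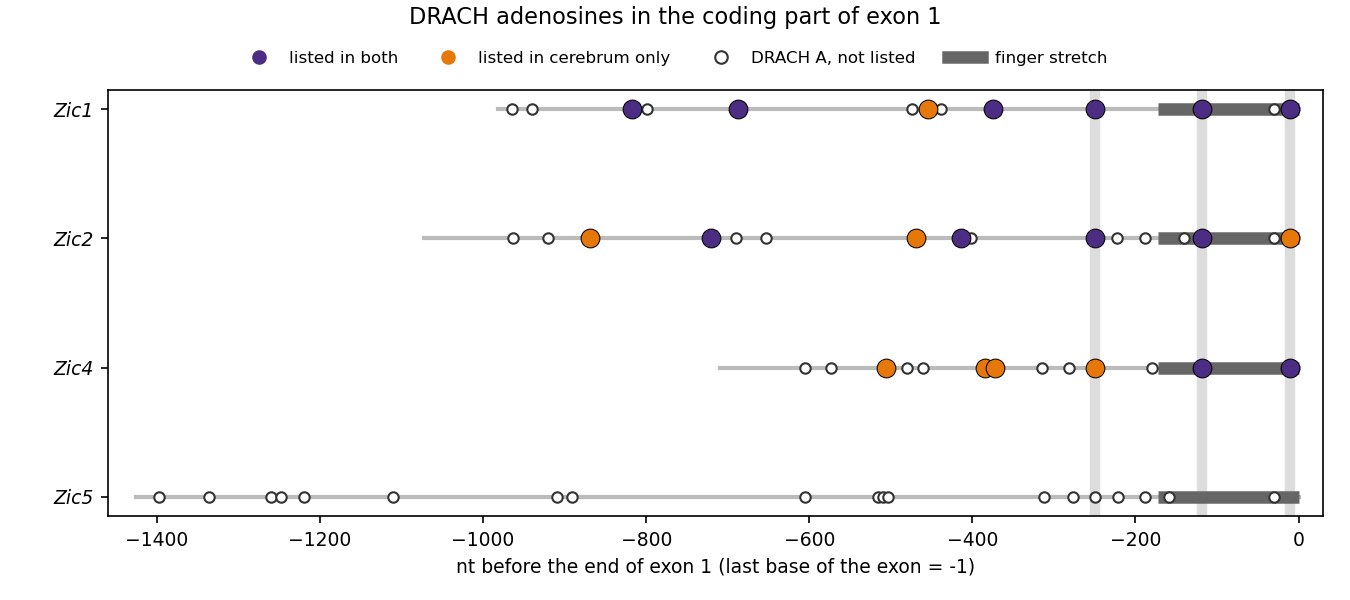
Every DRACH adenosine in the coding part of exon 1 of the 4 genes, by distance from the end of the exon (nt), with filled circles for detected sites coloured by library, open circles for those not listed, and a thick bar for the part of the finger stretch encoded by exon 1. Grey bands mark the positions 250, 119 and 10 nt from the end, filled in Zic1, Zic2 and Zic4 and not in Zic5.

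The position 10 nt from the end of exon 1 is close to an exon junction, where m6A is sparse in most mRNAs. In the 4 Zic genes, 14 DRACH adenosines lie within 100 nt of a junction, and 2 were cerebellum sites (14.3%, 4.01% to 39.9%) and 3 were listed in the cerebrum (21.4%, 7.57% to 47.6%). In coding genes with a site, 1.13% of such adenosines were detected in the cerebellum and 1.74% in the cerebrum. The Zic sites concerned are the 3 aligned ones at 10 nt, so they are not independent of each other. Beyond 100 nt, the Zic genes had 24 of 266 detected in the cerebellum (9.02%) and 39 of 266 in the cerebrum (14.7%), against 8.32% and 11.0%. The other 11 adenosines within 100 nt, among them those of the 164-nt exons 2, were not listed.
Over all genes, these shares were higher in long exons. Among DRACH adenosines in the last 20 nt of a non-final exon of 500 nt or more, 39 of 1271 were detected in the cerebellum (3.07%) and 81 of 1627 in the cerebrum (4.98%). In exons under 500 nt, the shares were 0.252% and 0.579%. Zic1, Zic2 and Zic4 each have 1 DRACH adenosine in the last 20 nt of their long exon 1, and 2 of these 3 were listed in the cerebellum and all 3 in the cerebrum. This comparison was added after the sites had been seen.

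**Figure D4:**
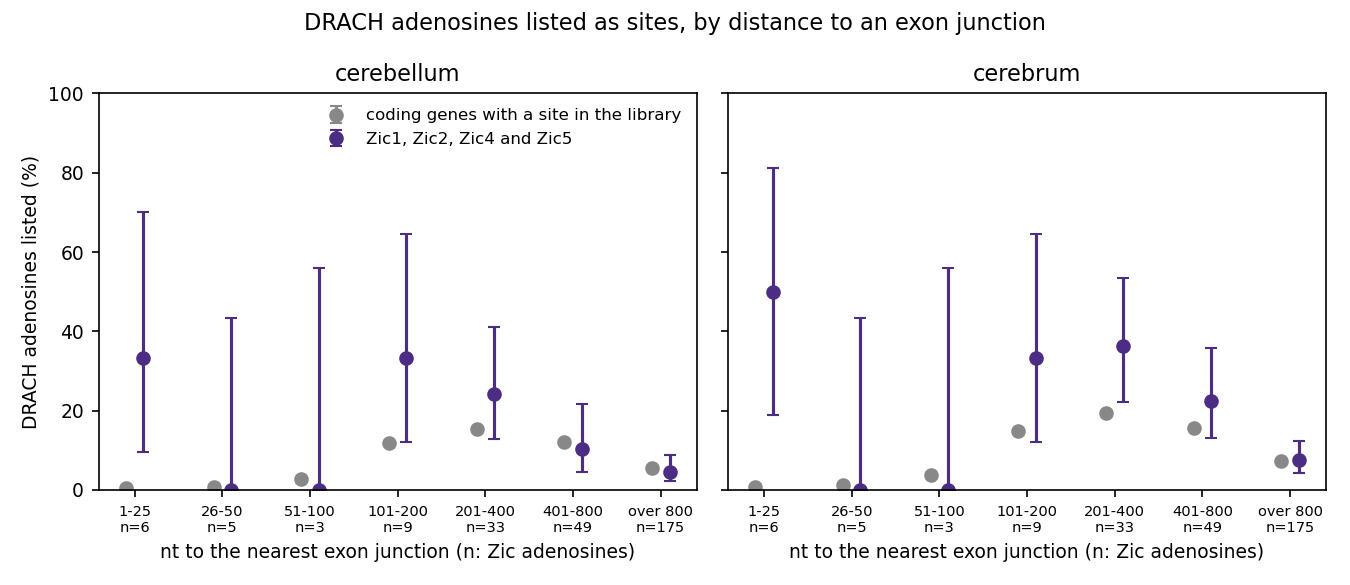
Share of DRACH adenosines listed as sites (y axis, percent) by distance to the nearest exon junction (x axis, nt), for the 4 Zic genes together (purple) and coding genes with a site in that library (grey), with 95% Wilson intervals as bars. Over coding genes the share climbs from under 1% at 1 to 25 nt, whereas 2 and 3 of the 6 Zic adenosines in that bin are listed in the cerebellum and cerebrum.

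Along the transcript, the Zic genes were not richer in 3′ UTR sites than the rest of the lists. On coding isoforms, the 3′ UTR held 18 of 35 sites in the cerebellum (51.4%, 35.6% to 67.0%), against 56.3% over all genes. In the cerebrum it held 30 of 57 (52.6%, 39.9% to 65.0%), against 53.8%. The CDS held 42.9% and 42.1%, against 40.9% and 43.0%, and the 5′ UTR 5.71% and 5.26%, against 2.82% and 3.24%. Within 200 nt of the stop codon lay 5 of 35 (14.3%, 6.26% to 29.4%) and 9 of 57 (15.8%, 8.54% to 27.4%), against 20.4% and 19.0%. Each interval given here holds the value over all genes. Counted per DRACH adenosine of the longest isoforms, 26 of 280 were cerebellum sites (9.29%, 6.42% to 13.3%), against 5.81% in coding genes with a site. The cerebrum listed 42 of 280 (95% interval 11.3% to 19.7%), against 7.65%. Fewer Zic adenosines lie near junctions, with 14 of 280 within 100 nt, against 259602 of 743700 in coding genes with a cerebellum site. Beyond 100 nt the shares were 9.02% against 8.32% (cerebellum) and 14.7% against 11.0% (cerebrum). The shares by region that follow were not set apart by this distance. The DRACH adenosines of the coding sequence were listed in 12 of 78 cases for the cerebellum (15.4%), against 5.01% over coding genes, and in 20 of 78 for the cerebrum (25.6%, 17.3% to 36.3%), against 6.73%. In Zic1 the share of coding DRACH adenosines reached 40.0% (cerebellum) and 46.7% (cerebrum), in Zic2 4 and 7 of 20 were listed, and in Zic4 the shares were 11.8% and 35.3%. In Zic5 0 of 26 were listed in either library, so the pooled shares do not describe each gene. All 20 detected coding DRACH sites lay in exon 1. Most of them were copies at the 6 aligned positions and are not independent, which the intervals do not take into account. In the 3′ UTR, 12 of 189 (6.35%) and 20 of 189 (10.6%) were detected, against 6.86% and 8.97%. In the 5′ UTR, 2 of 13 were detected in each library, against 3.16% and 3.97%.

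Sites of related zinc finger genes were counted in the same way. Gli3, the main GLI repressor, had 3 cerebellum and 10 cerebrum sites, and Glis2, a GLI-similar factor, 2 and 7, with no position shared between the libraries, where 22.0% of all sites were shared. The GLI activators Gli1 and Gli2 had 0 and 2, and 1 and 2 sites. Of the 6 genes of this list, 4 had a cerebellum site and all 6 a cerebrum site, with 7 sites against 26 in all, beside 79355 against 188295 in the whole lists.

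The tissue labels were examined through sites of marker genes. The forebrain list of 9 genes had 34 cerebellum and 286 cerebrum sites, and Tbr1, a regulator of deep-layer cortical neurons, had 0 and 25. Each of the 9 genes had more in the cerebrum, but so did most coding genes, as 2.78% of those with 10 or more sites had at least as many in the cerebellum. A cerebellum site was listed in 4 of the 9, against 70.3% of coding genes with a site. A list of 10 genes, named for the granule lineage but not limited to it, had 131 cerebellum and 245 cerebrum sites. There were more cerebrum sites in 7 of its genes, equal counts in 2 and more cerebellum sites in 1. That gene was Barhl1, a homeobox gene of granule cell precursors, with 12 and 1. Meis1 had 14 and 14, Meis2 37 and 111, Cbln1 16 and 19, and Rora 52 and 55. Atoh1, which specifies the granule lineage, had no site in either library. Pax6, Neurod1, Etv1 and Eomes had no cerebellum site and 2, 23, 13 and 7 in the cerebrum. Of the 9 genes with any site, 5 had one in the cerebellum, against the same 70.3%. These counts do not measure expression, so they are a weak check of the labels.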

How the data were processed

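The deposited files hold the positions of m6A sites on mm10 with their strand, and no rate or read count. Per the methods, GLORI-tools was run by the authors on mm10 and on PWK-mm10 (mm10 with PWK bases at SNPs), united both sets and kept those with a rate over 0.1 and more than 8 reads. Positions were read in GRCm38, the assembly that mm10 names. Gene models were GENCODE M21, which is not the release that the authors name. Each site was placed on the longest isoform with a complete CDS and both UTRs, otherwise on other exons or introns. DRACH adenosines were read from the spliced isoforms. Proteins were translated from these isoforms and aligned with mafft 7.526 (L-INS-i). Shares have 95% Wilson intervals, which cover counting error only. No test was made, with 1 library per tissue. The members, gene lists and comparisons were chosen with earlier results of these data known. Single sites were named near the stop codon, in the 5′ UTR, outside DRACH, in the cerebellum only, at aligned positions, and as the first and last of a gene. The sites off the coding isoforms of Zic4 and those that both libraries share in Zic5 were named after their values were seen. Computations used Python 3.11.15, scipy 1.17.1, pysam 0.24.0 and samtools 1.23.1, with figures from matplotlib 3.10.9, and were tested on simulated data. Some genes of the fixed lists are not reported here.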

Additional observations from a re-analysis of the deposited data

How the results depend on the processing

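No paired analysis was possible because each tissue has 1 library and no result comes from a test. Of 45 alternatives over 19 values, 38 stayed within the interval of the value or within 1.5 times a count. Among DRACH sites only, the shared share was 88.5% for cerebellum sites (68.6% over all motifs) and 48.9% for cerebrum sites (35.8%). Among sites in both libraries, the DRACH share was 95.8%, against 74.3% of cerebellum and 70.1% of cerebrum sites, where the whole lists had 82.7%, 62.1% and 46.7%. With 400 nt around the stop codon, the share of cerebellum sites moved from 14.3% to 37.1%. That of cerebrum sites went from 15.8% to 26.3%, which stayed within its interval (8.54% to 27.4%). A wider window can only hold more sites, and its share over all genes was not computed. In the last 20 nt of long exons, an alternative chosen after seeing the data, the detected share near junctions became 66.7% (cerebellum) and 100% (cerebrum), of 3 adenosines. Extending the intervals by 2000 nt added 1 site in each library, and no site lay at a reference base other than A. With few sites per gene, shares of single genes have wide intervals, and no depth limits could be set.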

Other observations

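Around the 4 genes the lists were almost empty. The noncoding gene 2610035F20Rik, between Zic5 and Zic2, and Gm37477, on the opposite strand inside Zic4, had no site in either library. Within 2000 nt downstream of the genes lay 1 site, after Zic2, listed in both libraries. Ranked by the share of cerebellum sites among the exonic DRACH sites of both lists, Zic1 stood at 50.0% with 14 and 14, a share that 170 of 4171 other genes with at least 7 such sites also had, with Pcdh17 (66 and 66), Ptprz1 (64 and 64), Adgrl3 (43 and 43), Disp2 (39 and 39) and Fam168a (32 and 32) the richest in sites. Zic2, with 6 and 8, shared its 42.9% with 82 genes, led by Arhgap21 (42 and 56). Zic4, with 4 and 15, shared its 21.1% with 5 genes, Brpf3, Fbxo10, Gm20671, Ttl and Zfp810, and Zic5, with 2 and 7, shared its 22.2% with 81 genes, led by Cdk19 and Skida1 (6 and 21 each).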
